A study of Homo sapiens with 6 samples.

Results

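Genes of the heat shock protein families HSP70, HSP90 and small HSP, of their J-protein partners and of the heat shock factor HSF1 were examined in motor neurons kept under simulated microgravity. The members are the protein-coding genes whose names are HSPA, HSPB, DNAJA, DNAJB or DNAJC with a number, together with HSPH1, HSPD1, HSPE1, HSP90AA1, HSP90AB1 and HSF1. They were taken by name, but the choice of these families was made with earlier results of these data known. This gave 70 of the 57820 genes in the deposited table, of which 57 had enough counts to be tested. The cells were motor neurons made from the human embryonic stem cell line H9, which is established and of wild-type genotype. Both groups were differentiated from motor neuron progenitors with RA (retinoic acid) and SAG, which switches on Hedgehog signalling. The simulated microgravity group (SMG, 3 libraries) was kept on a 2D clinostat, an instrument that turns cells steadily so that no direction of gravity lasts. The normal gravity group (NG, 3 libraries) was not rotated. RNA from whole cultures was sequenced, so fewer cells of a type and less RNA per cell cannot be told apart.

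HSP70 proteins bind exposed hydrophobic stretches of unfolded proteins and release them in a cycle of ATP binding and hydrolysis. J-proteins deliver clients to HSP70 and stimulate its hydrolysis of ATP, and members of the HSP110 branch exchange its nucleotide. HSP90 proteins act later in folding, on kinases and steroid receptors among others. The chaperonin of HSPD1 and HSPE1 folds proteins inside mitochondria, and small HSPs hold unfolded proteins in a soluble state without ATP. HSF1 binds heat shock elements, arrays of inverted GAA units in promoters, and raises transcription of many of these genes when unfolded proteins accumulate. Motor neurons are known for a high threshold for that induction, and HSPB1, HSPB8 and DNAJB2 are known, with others, as genes of inherited motor neuropathies.

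Heat shock elements of 3 or more units were found in the promoter windows of 7 members and are shown because they are the letters that HSF1 is known to bind. The windows of RefSeq (GRCh38.p14) run over 300 bases, from 250 bases before a transcript start to 50 bases after it, and were given for 62 of the 70 members. The motif searched was GAANNTTCNNGAA or TTCNNGAANNTTC, which together cover both strands. Each stretch of 29 bases is printed 5′ to 3′ on the strand of its gene, with the letters of the GAA and TTC units in capitals. By GENCODE 29 the HSPA6 stretch lies outside every exon, in an intron of the long non-coding gene AL590385.2. The stretches of HSP90AB1 and DNAJB6 lie in introns of longer transcripts of the same genes. Those of DNAJA1, HSPA8 and HSP90AA1 lie in annotated exons of these genes, and that of HSPD1 lies in exons of HSPD1 and HSPE1, which overlap head to head.
HSPA6, chr1:161524458-161524486 (+): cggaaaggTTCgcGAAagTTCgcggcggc
HSP90AA1, chr14:102087112-102087140 (-): gagggttcTTCcgGAAggTTCgggaggct
HSP90AB1, chr6:44247770-44247798 (+): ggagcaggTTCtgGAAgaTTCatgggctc
HSP90AB1, chr6:44247823-44247851 (+): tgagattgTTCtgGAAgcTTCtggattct
HSPA8, chr11:123062346-123062374 (-): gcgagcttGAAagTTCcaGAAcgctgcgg
HSPA8, chr11:123062171-123062199 (-): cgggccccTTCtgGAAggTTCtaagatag
HSPD1, chr2:197500062-197500090 (-): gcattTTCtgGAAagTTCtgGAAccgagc
DNAJA1, chr9:33025268-33025296 (+): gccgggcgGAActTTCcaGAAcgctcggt
DNAJB6, chr7:157336865-157336893 (+): agagccgaGAAccTTCgcGAAggtggggc
The HSPA6 element ended 62 bases before the transcript start, and that of HSP90AA1 ended 76 bases before it. HSP90AB1 had elements that ended 153 and 100 bases before the start, and HSPA8 had elements that ended 218 and 43 bases before it. The HSPD1 stretch holds 4 units in a row, which end 228 bases before a downstream start of the gene, and the DNAJA1 element lies 4 to 16 bases after the start. The element of 3 units was held by 11.3% of the 62 members and by 0.608% of the 27305 genes with a window. Its shorter form of 2 units, GAANNTTC or TTCNNGAA, which every longer element contains, was held by 22 members (35.5%) and by 16.2% of all genes with a window. A match is a run of letters and does not show that a factor binds there.

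The question of the comparison is which of these genes differ between motor neurons on the clinostat and motor neurons at normal gravity. Of the 57 tested members, 18 were lower and 4 were higher in SMG (edgeR's quasi-likelihood test, Benjamini-Hochberg adjusted over all 17803 genes tested, threshold 0.05), and 35 did not pass. The 22 called members were 38.6% of those tested, against 35.8% of all genes tested. The lower ones were 31.6%, where 18.5% of all genes tested were lower, and the higher ones were 7.02%, where 17.3% were higher. The median log2 fold change (SMG minus NG) was -0.040 over the members and -0.00018 over all genes tested, and 36 members had a negative value and 21 a positive one. Nearly all differences were small, since the median size of a log2 fold change was 0.10 in members and 0.16 in all genes tested. HSPA6 was the 1 called member that differed by at least 1.5-fold, which 3.69% of all genes tested did. The groups did not overlap in 30 members (52.6%), 21 lower and 9 higher, against 46.3% of all genes tested.

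**Figure D1:**
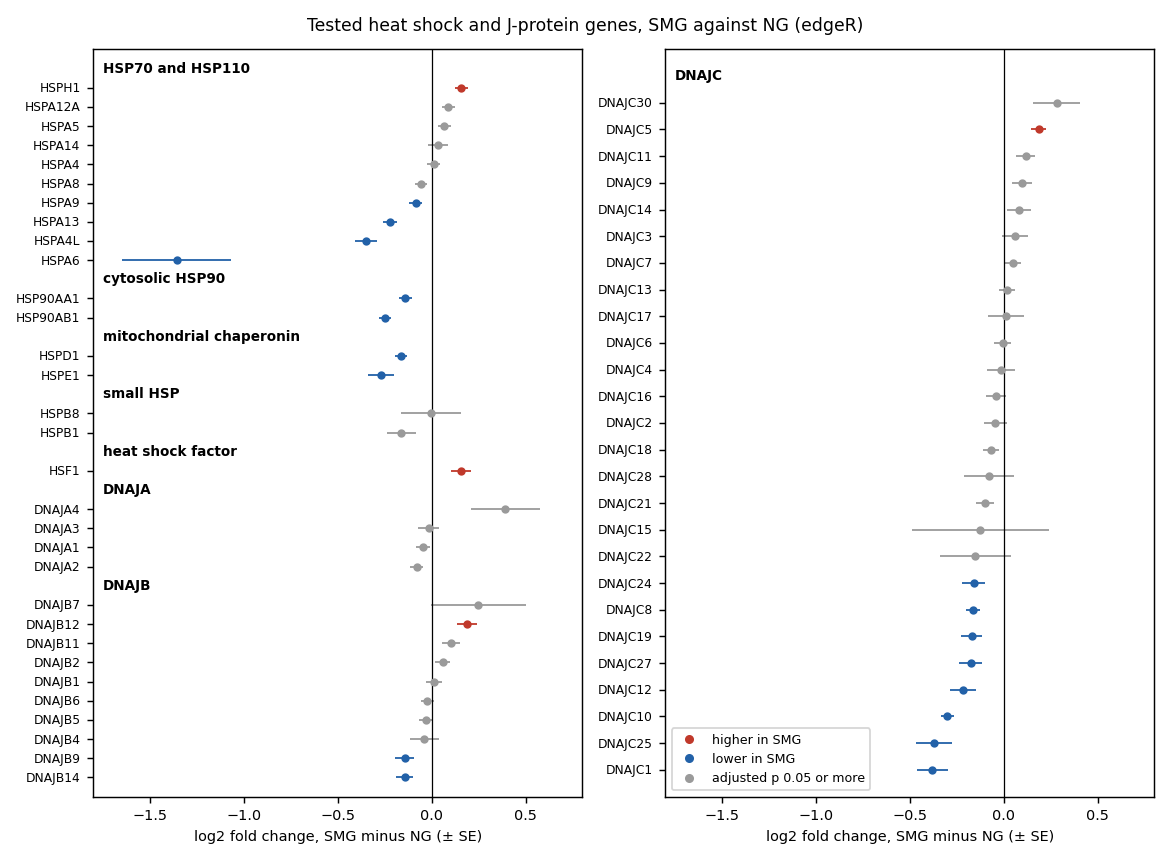
Log2 fold change of each tested member, SMG minus NG, by family, with bars of ± SE and 3 libraries per group. Both HSP90 genes and both chaperonin genes lie left of 0, HSPA6 lies farthest left at -1.36, and HSPH1, HSF1, DNAJB12 and DNAJC5 are the called members right of 0.

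Total counts per library ran from 16329907 to 22685870, and 3 counts, the most that an observed 0 allows, corresponded to 0.132 to 0.184 CPM (counts relative to the library total, scaled by TMM). Replicate libraries differed beyond sampling noise, with a chi-square of 1.59 to 3.37 per degree of freedom. The labels do not say that libraries came from separate cultures, so p-values measure no more than the spread among them, and that spread may be technical. Markers of motor neurons summed to 658 to 682 CPM in SMG libraries and 555 to 580 CPM in NG libraries, with 5 of 7 higher and 0 lower. Neuronal markers summed to 7936 to 8127 CPM in SMG libraries and 7831 to 8442 CPM in NG libraries, with RBFOX3 higher, STMN2 lower and 3 of 5 not passing. Markers of spinal progenitors summed to 2482 to 2649 CPM in SMG libraries and 2441 to 2700 CPM in NG libraries, most of it from NES, and 2 of 5 were lower, OLIG2 and PAX6. Markers of dividing cells (MKI67, TOP2A and CCNB1) summed to 799 to 817 CPM in SMG libraries and 940 to 986 CPM in NG libraries, with 2 of 3 lower. Astrocyte markers summed to 38.5 to 41.9 CPM in SMG libraries and 45.02 to 45.3 CPM in NG libraries, nearly all from SLC1A3, and oligodendrocyte markers to 236 to 238 CPM in SMG libraries and 248 to 275 CPM in NG libraries, with MOG not tested. Pluripotency markers summed to 45.8 to 53.9 CPM in SMG libraries and 54.9 to 58.0 CPM in NG libraries, nearly all LIN28A, while POU5F1 and NANOG had too few counts to be tested. Mesenchyme, muscle and microglia markers each summed to at most 2.13 CPM in every library. The part of these marker differences in the results below was not tested.

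The members together took 0.811%, 0.820% and 0.807% of the counts of SMG libraries 1 to 3, and 0.851%, 0.847% and 0.877% of those of NG libraries 1 to 3. All SMG libraries thus gave members a smaller share than any NG library. HSP90AA1, HSP90AB1 and HSPA8 alone made up 47.4%, 47.8% and 47.3% of the member counts in SMG libraries and 49.3%, 49.2% and 50.1% in NG libraries. Per kilobase of the longest GENCODE 29 transcript, averaged over all 6 libraries, the order of levels was led by HSP90AB1 at 549 CPM per kb, HSP90AA1 at 441 and HSPA8 at 426. The next were DNAJA1 at 185, HSPD1 at 167, HSPA5 at 74.5 and HSPA9 at 54.3 CPM per kb. The inducible member HSPA6 stood at 0.352 CPM per kb, and the small HSP with the highest level, HSPB1, at 14.1. Among the members whose counts can be read, which leaves out HSPA1A and HSPA1B as described below, cytosolic HSP90 and HSPA8 had the highest levels.

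Both cytosolic HSP90 genes were lower in SMG. HSP90AB1, the constitutive form, had 1326, 1379 and 1321 CPM in SMG libraries 1 to 3, against 1559, 1558 and 1668 CPM in NG libraries 1 to 3. Every SMG library was below every NG library, the mean being 1342 ± 31.9 CPM in SMG and 1595 ± 63.1 CPM in NG (SD, n = 3 each). The log2 fold change was -0.25 ± 0.033 (SE; edgeR adjusted p = 8.91e-07), and the level fell by 15.9%. HSP90AA1, the stress-inducible form, had 1472, 1489 and 1450.0 CPM in SMG libraries and 1588, 1554 and 1728 CPM in NG libraries. Its groups did not overlap either, although NG library 3 stood above the other 2 NG libraries, and its log2 fold change was -0.14 ± 0.035 (edgeR adjusted p = 0.00189). Without NG library 3 it was -0.093 (adjusted p = 0.00627). Of stretches of 50 bases in the transcripts, 18.8% of those of HSP90AB1 and 17.5% of those of HSP90AA1 also occur in another gene, mainly in pseudogenes, and the sources used here do not give how such reads were counted. HSP90AA1 also overlaps exons of WDR20 on the opposite strand, and since use of strand is not stated, reads of the 2 genes cannot be told apart there.

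The ratio of HSP90AA1 to HSP90AB1 (CPM over CPM in the same library) was 1.11, 1.08 and 1.10 in SMG libraries and 1.02, 0.997 and 1.04 in NG libraries. The stress-inducible form thus took a slightly larger part of the HSP90 transcripts in all 3 SMG libraries, with a difference of 0.11 in mean log2 ratio. An exact two-sided permutation test gave p = 0.10, which is the smallest that 3 libraries against 3 allow, and 0.10 after Benjamini-Hochberg adjustment over the 2 gene pairs tested.

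Among the HSP70 and HSP110 genes, 15 in all with 10 tested, 4 were lower, 1 was higher and 5 did not pass, with a median log2 fold change of -0.025. HSPA8, the constitutive cytosolic HSP70, had 1008, 1049 and 1025 CPM in SMG libraries and 1080.5, 1074 and 1054 CPM in NG libraries. All SMG values were below all NG values, but by too little to pass (-0.059 ± 0.031, edgeR adjusted p = 0.143). HSPA5 (BiP), the HSP70 of the endoplasmic reticulum, had 295, 300.4 and 298 CPM in SMG libraries and 291, 268 and 295 CPM in NG libraries. The highest NG library came within 1 CPM of the lowest SMG library, and the difference did not pass (0.065 ± 0.035, edgeR adjusted p = 0.155). HSPA13, a microsomal HSP70, had 138, 142 and 138 CPM in SMG libraries and 162, 156 and 169 CPM in NG libraries. It was lower in SMG without overlap (-0.22 ± 0.036, edgeR adjusted p = 1.81e-05). HSPA9 (mortalin), the HSP70 of mitochondria and a motor of protein import, had 240.4, 255 and 252 CPM in SMG libraries and 264, 263 and 266 CPM in NG libraries. Its log2 fold change was -0.086 ± 0.033 (edgeR adjusted p = 0.0429), and the call was lost in 12 of 18 alternative analyses, among them those without library SMG 1, SMG 3, NG 1 or NG 2 (adjusted p of 0.0627 to 0.246).

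The nucleotide exchange factors of the HSP110 branch went different ways. HSPH1 had 174, 171 and 168 CPM in SMG libraries and 158, 154 and 147 CPM in NG libraries. It was higher in every SMG library, at 171 ± 2.94 CPM on average in SMG and 153 ± 5.57 CPM in NG, with a log2 fold change of 0.16 ± 0.036 (edgeR adjusted p = 9.55e-04). HSPA4L had 30.1, 28.7 and 31.8 CPM in SMG libraries and 39.0, 35.7 and 40.5 CPM in NG libraries. It was lower in every SMG library and fell by 21.4% (-0.35 ± 0.058, edgeR adjusted p = 2.85e-05). HSPA4, the most abundant of the branch, had 227, 237 and 219 CPM in SMG libraries and 232, 221 and 225 CPM in NG libraries, with overlapping groups (0.0090 ± 0.035, edgeR adjusted p = 0.871). HSPA12A, a divergent HSP70, was at 0.087 ± 0.035 (edgeR adjusted p = 0.0533) and HSPA14, which works at the ribosome, at 0.032 ± 0.051 (edgeR adjusted p = 0.664).

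HSPA6 is an HSP70 that human cells make almost solely under stress, and it had the largest fold of all called members. It had 8, 11 and 12 counts in SMG libraries 1 to 3 (0.378, 0.494 and 0.526 CPM), against 26, 21 and 18 counts in NG libraries 1 to 3 (1.23, 1.29 and 1.10 CPM). Every SMG library was below every NG library although the SMG libraries 2 and 3 were the deepest of the 6. The mean was 0.466 ± 0.0779 CPM in SMG and 1.21 ± 0.0997 CPM in NG (SD, n = 3 each), and the log2 fold change was -1.36 ± 0.29 (edgeR adjusted p = 5.41e-04). It was between -1.45 and -1.23, with adjusted p of 3.07e-04 to 0.00877, in the 18 alternatives. Among these, the filter of 1 CPM in 3 libraries kept HSPA6 through its NG libraries alone, so that fit gives no support of its own. Neither does the fit with HSPA1A and HSPA1B summed, which repeats the main one. HSPA6 passed the filter on low counts (a level equal to about 10 counts) in 3 NG libraries and 2 SMG libraries, so its test was partly made possible by the group in which it is high. Of its stretches of 50 bases, 45.5% also occur in the neighbouring pseudogene HSPA7, which had 0, 0 and 1 counts in SMG libraries and 0 in each NG library. At this depth a few counts decide these levels.

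The 250 bases before the starts of HSPA6 and HSPH1 are shown because HSPA6 had the deepest fall of the HSP70 and HSP110 genes and HSPH1 was the 1 that rose. They are printed 5′ to 3′ on the strand of the gene (RefSeq, GRCh38.p14), with GAA and TTC units of heat shock elements of 3 units in capitals. Neither stretch overlaps an exon in GENCODE 29. HSPA6 holds 1 such element and HSPH1 holds 0 in this window, which says only that these letters are not there.
HSPA6, chr1:161524290-161524539 (+): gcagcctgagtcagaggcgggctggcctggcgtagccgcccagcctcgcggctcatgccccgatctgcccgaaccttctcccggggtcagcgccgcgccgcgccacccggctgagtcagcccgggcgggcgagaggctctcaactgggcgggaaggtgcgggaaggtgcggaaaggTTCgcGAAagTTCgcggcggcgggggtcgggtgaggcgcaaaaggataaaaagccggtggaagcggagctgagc
HSPH1, chr13:31162389-31162638 (-): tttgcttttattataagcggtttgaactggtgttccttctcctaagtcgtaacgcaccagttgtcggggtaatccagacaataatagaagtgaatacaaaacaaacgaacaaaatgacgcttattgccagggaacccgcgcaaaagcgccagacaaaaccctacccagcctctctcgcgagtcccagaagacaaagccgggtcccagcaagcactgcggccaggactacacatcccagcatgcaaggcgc

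**Figure D2:**
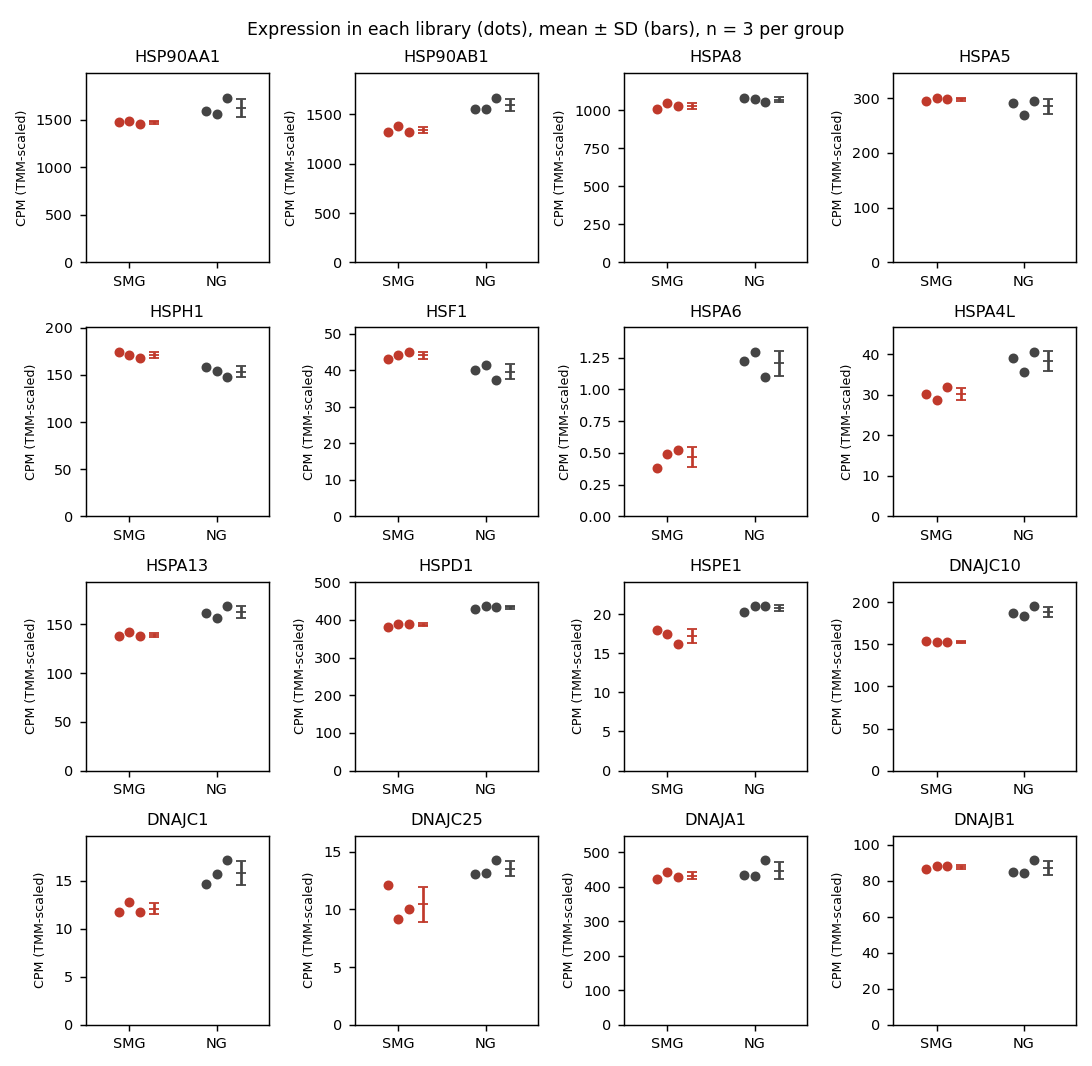
CPM (TMM-scaled, linear axes from 0) of 16 members in each library, SMG left of NG, with dots for libraries and bars for mean ± SD (n = 3 per group). The SMG dots lie above all NG dots for HSPH1, HSF1 and, by under 1 CPM, HSPA5, lie among them for DNAJA1 and DNAJB1, and lie below them for the other 11.

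The stress-inducible pair HSPA1A and HSPA1B, near-identical neighbours on chromosome 6, could not be assessed. HSPA1A had 2, 0 and 2 counts in SMG libraries and 1, 0 and 1 in NG libraries. HSPA1B had 0 counts in each SMG library and 0, 1 and 0 in NG libraries, and the testis-enriched HSPA1L beside them had 0 in all 6. All of these are under the limit of 3 counts per library, so no fold or ratio is given. In HSPA1A, 72.6% of stretches of 50 bases also occur in another gene, mostly HSPA1B, while 27.4% occur in no other. The levels are read with care because the surrounding genes were also near 0. Of the 50 nearest protein-coding genes on chromosome 6, 25 on each side of HSPA1A in GENCODE 29 order with HSPA1L and HSPA1B among them, 2 (DDAH2 and AGPAT1, 4.0%) averaged at least 10 CPM, against 51.4% of the 19213 other protein-coding genes. Their median was 0.0254 CPM, against 11.4 CPM for the others. Genes that nearly every cell uses were among them, such as CSNK2B, a subunit of casein kinase 2, at 0.0255 CPM and LSM2, a subunit of an RNA-binding ring, at 0.0180 CPM. These neighbours were looked at after their values were seen. The near-absence of HSPA1A and HSPA1B counts therefore cannot be read as absence of their transcripts, and the reason for the low counts along this stretch was not tested.

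**Figure D3:**
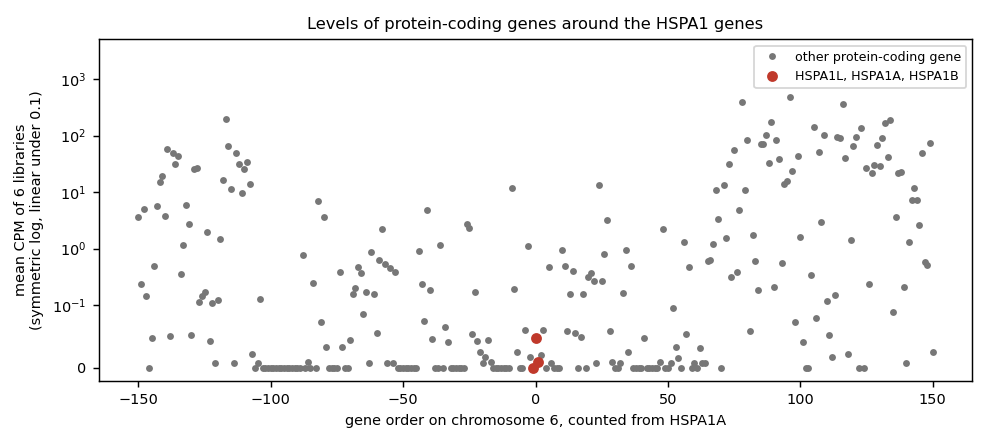
Mean CPM of the 6 libraries (symmetric log axis, linear under 0.1) of protein-coding genes on chromosome 6, in their order from HSPA1A at 0. HSPA1L, HSPA1A and HSPA1B are in red, and the 50 genes nearest to HSPA1A, which include HSPA1L and HSPA1B, have a median of 0.0254 CPM while genes farther out on both sides reach over 100 CPM.

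The other HSP70 genes that were not tested were HSPA2, best known from testis, with 5, 7 and 8 counts in SMG libraries and 9, 11 and 7 in NG libraries, and HSPA12B, known from endothelium, with 7, 5 and 8 counts in SMG libraries and 6, 8 and 0 in NG libraries. In CPM, HSPA2 had 0.236, 0.314 and 0.350 in SMG libraries and 0.424, 0.677 and 0.427 in NG libraries. Its SMG values were all below its NG values, from counts too few to be tested here.

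Both genes of the mitochondrial chaperonin were lower in SMG. HSPD1 (HSP60), which forms the folding chamber, had 382, 389.5 and 390.4 CPM in SMG libraries and 429, 437 and 436 CPM in NG libraries. The groups did not overlap, and it fell by 10.7%, with a log2 fold change of -0.16 ± 0.031 (edgeR adjusted p = 1.42e-04). HSPE1 (HSP10), its lid, had 18.0, 17.5 and 16.2 CPM in SMG libraries and 20.3, 21.0 and 21.0 CPM in NG libraries. It was also lower in all 3 SMG libraries (-0.27 ± 0.069, edgeR adjusted p = 0.00275). The 2 genes lie head to head on chromosome 2 and share the region in which the HSPD1 element of 4 units, printed above, is found. The ratio of HSPD1 to HSPE1 was 21.3, 22.3 and 24.2 in SMG libraries and 21.1, 20.8 and 20.8 in NG libraries. That difference of 0.11 in mean log2 ratio had an exact two-sided permutation p of 0.10, the smallest possible here. Pseudogenes share 24.8% of the stretches of 50 bases of HSPD1 and other genes 27.2% of those of HSPE1, which also overlaps the readthrough gene HSPE1-MOB4 on its own strand.

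Small HSPs were scarce, with 2 of 6 genes tested and 0 called by edgeR, DESeq2 or limma-voom, against 35.8% of all genes tested by edgeR, and 1 had an unadjusted edgeR p under 0.05. HSPB1 (HSP27) had 18.2, 21.1 and 19.0 CPM in SMG libraries and 22.3, 23.5 and 19.4 CPM in NG libraries. The groups overlapped and its log2 fold change was -0.16 ± 0.075 (edgeR adjusted p = 0.0937). HSPB1 was called lower by edgeR without library NG 3 or SMG 2. With the length and GC trend removed it was also called, at -0.29 (edgeR adjusted p = 9.25e-04). HSPB8, a partner of BAG3 in selective autophagy, had 2.60, 2.51 and 3.02 CPM in SMG libraries and 2.97, 2.46 and 2.68 CPM in NG libraries. Its mean was the same within the spread, with a log2 fold change of -0.0056 ± 0.16 (edgeR adjusted p = 0.984). HSPB2, HSPB3, HSPB6 and HSPB7, which are best known from muscle, had at most 4 counts in any library.

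HSF1, the factor that induces many of these genes, had 43.0, 44.2 and 44.97 CPM in SMG libraries and 39.9, 41.4 and 37.3 CPM in NG libraries. It was higher in all 3 SMG libraries, at 44.1 ± 0.993 CPM on average in SMG and 39.5 ± 2.07 CPM in NG, with a log2 fold change of 0.16 ± 0.052 (edgeR adjusted p = 0.0201). The call was lost with DESeq2 (DESeq2 adjusted p = 0.0613) and, in edgeR, without library SMG 2, SMG 3 or NG 3 (adjusted p of 0.0618 to 0.0899). After removal of the trend with transcript length and GC content the log2 fold change was -0.021 (edgeR adjusted p = 0.778). HSF1 also overlaps exons of DGAT1 on the opposite strand. The level of its transcript says nothing of its activity, which is controlled on the protein. Of the 7 members with a heat shock element of 3 units in their window, 4 were lower (HSP90AA1, HSP90AB1, HSPA6 and HSPD1), 0 were higher, and DNAJA1, DNAJB6 and HSPA8 did not pass. With the length and GC trend removed these 4 stayed lower. DNAJB6 was then also lower, at -0.14 (edgeR adjusted p = 5.62e-04), and DNAJA1 was higher, at 0.076 (edgeR adjusted p = 0.0478). Of the 55 members whose window held none, 45 were tested, of which 12 were lower and 3 higher. With the shorter element of 2 units, 17 holders were tested, and 6 were lower and 0 higher, while of 35 tested members without it 10 were lower and 3 higher. Of all genes tested, 18.5% were lower and 17.3% higher, and these counts were not tested against each other.

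J-proteins, 44 genes with 40 tested, had 10 lower, 2 higher and 28 that did not pass, with a median log2 fold change of -0.035. Of the 4 class A members, 0 passed by edgeR, DESeq2 or limma-voom, and 2 had an unadjusted edgeR p under 0.05. DNAJA1, the major cytosolic class A J-protein, had 423, 444 and 429 CPM in SMG libraries and 433, 431 and 477 CPM in NG libraries. The groups overlapped, with NG library 3 highest (-0.049 ± 0.036, edgeR adjusted p = 0.319). DNAJA2, its close relative, was lower in all 3 SMG libraries without passing (-0.081 ± 0.035, edgeR adjusted p = 0.0740). DNAJA3, of mitochondria, was at -0.016 ± 0.056 (edgeR adjusted p = 0.852). DNAJA4 had 2.69, 2.92 and 2.23 CPM in SMG libraries and 1.65, 1.97 and 2.44 CPM in NG libraries, a difference of 0.39 ± 0.18 that did not pass at these low levels (edgeR adjusted p = 0.0995).

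Class B had 12 genes, of which 10 were tested, 1 was higher and 2 were lower. DNAJB1 (HSP40), the main partner of inducible HSP70 and itself a heat shock gene, had 86.3, 88.4 and 88.1 CPM in SMG libraries and 85.0, 84.6 and 91.4 CPM in NG libraries. Its groups overlapped and the log2 fold change was 0.011 ± 0.041 (edgeR adjusted p = 0.858). DNAJB2, enriched in neurons, was at 0.057 ± 0.038, DNAJB6, a suppressor of protein aggregation, at -0.024 ± 0.035, DNAJB4 at -0.039 ± 0.076 and DNAJB5 at -0.031 ± 0.036, with edgeR adjusted p of 0.262 to 0.728. The called ones all belong to the endoplasmic reticulum. DNAJB12, an anchored protein of its membrane, had 40.6, 42.4 and 41.7 CPM in SMG libraries and 35.7, 38.3 and 35.7 CPM in NG libraries, higher in each SMG library (0.19 ± 0.052, edgeR adjusted p = 0.00578), and with the length and GC trend removed it was at 0.083 (adjusted p = 0.196). Its relative DNAJB14 had 77.3, 74.5 and 73.2 CPM in SMG libraries and 78.9, 80.1 and 90.1 CPM in NG libraries, lower in each (-0.15 ± 0.047, edgeR adjusted p = 0.0154). DNAJB9 (ERdj4), a partner of BiP, was at -0.14 ± 0.049 (edgeR adjusted p = 0.0220), and DNAJB11 (ERdj3), another, at 0.10 ± 0.046 (edgeR adjusted p = 0.0853). DNAJB7 was at 0.25 ± 0.25 at about 1 CPM, DNAJB8 had 0 counts in every library and DNAJB13, known from cilia and sperm, had 3 to 6.

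Class C is the most varied class, with 28 genes, of which 26 were tested, 8 were lower, 1 was higher and 17 did not pass. The called share was 34.6%, close to the 35.8% of all genes tested. DNAJC10 (ERdj5), a reductase of disulfide bonds in the endoplasmic reticulum, had 154, 152 and 152 CPM in SMG libraries and 187, 184 and 195 CPM in NG libraries. The spread within SMG was small, the groups lay far apart, and it fell by 18.9%, with the smallest adjusted p of all members (-0.30 ± 0.035, edgeR adjusted p = 8.26e-08). DNAJC1, a J-protein in the membrane of the endoplasmic reticulum, had 11.8, 12.8 and 11.8 CPM in SMG libraries and 14.7, 15.7 and 17.1 CPM in NG libraries. It was lower in each SMG library (-0.38 ± 0.083, edgeR adjusted p = 6.01e-04). DNAJC25 had 12.1, 9.16 and 10.03 CPM in SMG libraries and 13.1, 13.2 and 14.3 CPM in NG libraries. SMG library 1 came closest to the NG libraries, without overlap (-0.37 ± 0.095, edgeR adjusted p = 0.00274). Its exons are shared in part with the readthrough gene DNAJC25-GNG10.

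DNAJC8, which takes part in splicing and had the highest level per kilobase of its class (53.6 CPM per kb over all libraries), had 88.3, 86.4 and 92.1 CPM in SMG libraries and 98.0, 102 and 99.2 CPM in NG libraries. It was lower in each SMG library (-0.16 ± 0.039, edgeR adjusted p = 0.00149), and with the length and GC trend removed it was at -0.064 (adjusted p = 0.186). Other calls, all lower, were those of DNAJC12, a cochaperone of aromatic amino acid hydroxylases (-0.22 ± 0.070, edgeR adjusted p = 0.0164), DNAJC19, of mitochondrial import (-0.17 ± 0.056, edgeR adjusted p = 0.0174), DNAJC24, of the diphthamide pathway (-0.16 ± 0.061, edgeR adjusted p = 0.0420), and DNAJC27 (-0.18 ± 0.063, edgeR adjusted p = 0.0288). DNAJC5, the cysteine string protein of synaptic vesicles, was the 1 higher member of the class, with 145, 145 and 148 CPM in SMG libraries and 127, 136 and 123 CPM in NG libraries. The groups did not overlap (0.18 ± 0.038, edgeR adjusted p = 3.05e-04), but after removal of the length and GC trend its log2 fold change was 0.049 (adjusted p = 0.243). DNAJC6 (auxilin), which uncoats clathrin vesicles in neurons, had 62.6, 60.2 and 58.9 CPM in SMG libraries and 62.3, 59.0 and 60.9 CPM in NG libraries, nearly the same range (-0.0061 ± 0.045, edgeR adjusted p = 0.933). DNAJC13, of endosomes, was at 0.017 ± 0.041, DNAJC7 at 0.050 ± 0.042, DNAJC3, an inhibitor of the kinase PERK, at 0.060 ± 0.067 and DNAJC9, a histone chaperone, at 0.098 ± 0.053, and 0 of these 4 passed. The other 12 that did not pass ran from -0.15 for DNAJC22 to 0.28 for DNAJC30, which acts in mitochondria, and DNAJC5B and DNAJC5G, relatives of DNAJC5, had at most 3 counts in any library.

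Several of these small calls passed by little and were lost in some fits with 5 libraries. DNAJB14 missed the threshold without library SMG 2, SMG 3 or NG 3 (adjusted p of 0.0618 to 0.116), with a log2 fold change of -0.082 without NG 3. DNAJB9 missed it without library SMG 2, SMG 3, NG 1 or NG 2 (adjusted p of 0.0582 to 0.0848). DNAJC12 missed it without library SMG 2 or NG 1 (adjusted p of 0.0733 to 0.0847), and DNAJC19 without library SMG 2 or SMG 3 (adjusted p of 0.0544 to 0.0869). DNAJC27 missed it without library SMG 2, SMG 3, NG 2 or NG 3 (adjusted p of 0.0663 to 0.110), and DNAJC24 without any of the 6 in turn (adjusted p of 0.0513 to 0.190). The log2 fold changes of DNAJB9, DNAJC12, DNAJC19, DNAJC24 and DNAJC27 in these fits ran from -0.20 to -0.12, all negative. DNAJC10, DNAJC1, DNAJC25, DNAJC8, DNAJC5 and DNAJB12 kept their calls without each library. With the length and GC trend removed, DNAJC10, DNAJC1 and DNAJC25 kept them and DNAJC8, DNAJC5 and DNAJB12 did not. Exons of DNAJC19, DNAJC27 and DNAJB9 overlap other annotated genes on the opposite strand, and reads of such pairs cannot be told apart if strand was not used.

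Some members were also placed by location in the cell, in 5 groups drawn up after the values were seen. The groups do not hold every member, so their shares are not ranked. In this comparison 35.8% of all genes tested were called and 18.5% were lower. Of 9 placed in the endoplasmic reticulum, all tested, 5 were lower (DNAJC1, DNAJC10, HSPA13, DNAJB9 and DNAJB14) and DNAJB12 was higher. HSPA5, DNAJB11 and DNAJC3 did not pass, and the median log2 fold change of the 9 was -0.14. The 3 that did not pass had values of 0.065, 0.10 and 0.060, all above 0. With the length and GC trend removed, 3 of the 9 were lower (DNAJC1, DNAJC10 and HSPA13) and 2 higher (HSPA5 and DNAJB11), with a median of -0.017. Of 8 mitochondrial members, 4 were lower (HSPD1, HSPE1, HSPA9 and DNAJC19), 0 were higher, and DNAJA3, DNAJC11, DNAJC15 and DNAJC30 did not pass, with a median of -0.11. With the trend removed, 2 of these 8 were lower (HSPD1 and HSPE1) and 0 higher, with a median of -0.039. Of 8 cytosolic J-proteins of classes A and B, 0 passed in either direction by edgeR, DESeq2 or limma-voom, 2 had an unadjusted edgeR p under 0.05, and the median was -0.028. With the trend removed, 1 of these 8 was higher (DNAJA1) and 2 were lower (DNAJB5 and DNAJB6), with a median of 0.021. Of 3 members that work with clathrin, synaptic vesicles or endosomes, DNAJC5 was higher and 2 did not pass, and of 3 at the ribosome (DNAJC2, DNAJC21 and HSPA14) 0 passed by these tools and 1 had an unadjusted p under 0.05. With the trend removed, 0 of the clathrin, vesicle and endosome members were called. HSPA14 at the ribosome was then higher, at 0.15 (edgeR adjusted p = 0.0168).

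A fit in which each library's trend of counts with transcript length and GC content was removed called a different set of members. It had 13 lower and 7 higher, against 18 lower and 4 higher without removal, and the median of the members was -0.018. Of all genes tested, this fit called 30.8%, against 35.8% without removal. Of the genes it called, 49.5% were higher. The calls with and without removal shared 11 members, 10 lower and 1 higher. These were HSP90AA1, HSP90AB1, HSPD1, HSPE1, HSPA6, HSPA4L, HSPA13, DNAJC1, DNAJC10 and DNAJC25, which were lower, and HSPH1, which was higher. They were also called in all 18 alternative analyses, 1 of which HSPA6 entered through its NG libraries alone. Another, with HSPA1A and HSPA1B summed, repeats the main fit for every member and gives no support of its own. With removal HSP90AA1 was at -0.097 (adjusted p = 0.00915) and DNAJC25 at -0.25 (adjusted p = 0.0341). HSPD1 moved to -0.073 (adjusted p = 0.0349) and HSPA13 to -0.13 (adjusted p = 0.00155), while HSPH1 moved to 0.23 (adjusted p = 2.45e-06). Calls that appeared with removal alone were those of HSPA5 at 0.090 (adjusted p = 0.0198), DNAJB11 at 0.20 (adjusted p = 2.68e-04), HSPA14, DNAJC7, DNAJC9 and DNAJA1, which were higher, and HSPB1 at -0.29 (adjusted p = 9.25e-04), DNAJB5 and DNAJB6, which were lower. The 3 higher calls DNAJB12, DNAJC5 and HSF1 were lost. Which members other than the 11 differ thus depends on how transcript length and GC content are treated.

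**Figure D4:**
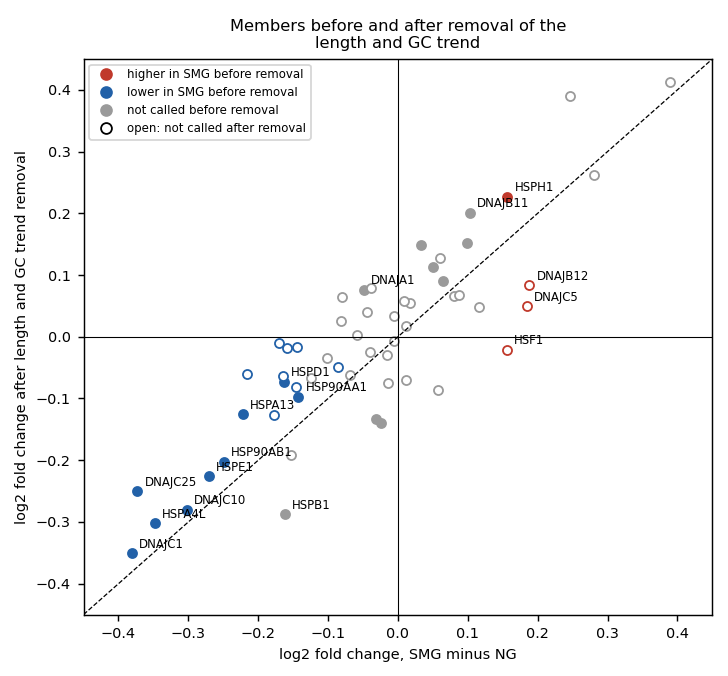
Log2 fold change of each tested member except HSPA6 (SMG minus NG), before removal of the length and GC trend on the x axis and after it on the y axis, with filled symbols called after removal and open symbols not, and a dashed line of equality. HSPH1 and 9 lower members stay called and on their side, while HSF1 crosses to -0.021 and DNAJA1 to 0.076.

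Partners of these chaperones were looked at through lists of other names. Of 13 exchange factors and cochaperones of HSP70, all tested, 5 were lower and 3 higher, with a median log2 fold change of -0.090. BAG6 is in this list and among the 50 genes nearest to HSPA1A, whose low counts are described above. It had 95 counts in NG library 3 and 27 to 40 in the other libraries, and did not pass (-0.98 ± 0.65, edgeR adjusted p = 0.327). SIL1, an exchange factor of BiP, was at -0.32 ± 0.10 (edgeR adjusted p = 0.0135), BAG2 at -0.30 ± 0.090 (edgeR adjusted p = 0.0104) and ST13 (HIP), which slows release from HSP70, at -0.26 ± 0.032 (edgeR adjusted p = 1.94e-07). Of 18 cochaperones of HSP90, 7 were lower and 1 higher, with a median of -0.058, and PTGES3 (p23) had the largest difference among those called (-0.19 ± 0.032, edgeR adjusted p = 3.46e-05), ahead of FKBP5 at -0.18 and CDC37L1 at -0.17. With the length and GC trend removed, PTGES3 and FKBP5 stayed lower, while CDC37L1 was at -0.055 (edgeR adjusted p = 0.492). HSP90B1, the HSP90 of the endoplasmic reticulum, was lower (-0.13 ± 0.032, edgeR adjusted p = 0.00168) and TRAP1 of mitochondria did not pass, but with the length and GC trend removed HSP90B1 was at -0.023 (adjusted p = 0.546) and TRAP1 at -0.16 (adjusted p = 0.00859). Of 4 J-domain proteins with other names, GAK, the widely expressed auxilin, was higher (0.35 ± 0.059, edgeR adjusted p = 1.36e-04) and 0 were lower. Of 4 tested heat shock factors and regulators besides HSF1, HSBP1 (-0.20) and HSF2 (-0.19) were lower, and with the trend removed HSF2 was at -0.057 (adjusted p = 0.295). Of 11 other genes known to be induced by HSF1, 5 of which are also in the 2 cochaperone lists, 6 were lower and 0 higher, with a median of -0.10, among them SERPINH1, a collagen chaperone (-0.23 ± 0.045, edgeR adjusted p = 2.12e-04) and CACYBP (-0.21). With the trend removed, 5 of these 11 were lower and 1 higher, and CACYBP was at -0.074 (adjusted p = 0.145). The cochaperones of HSP70 then had 3 lower and 2 higher, those of HSP90 had 8 lower and 1 higher, and the J-domain proteins with other names had 0 lower and 2 higher. Without removal, 18.5% of all genes tested were lower and 17.3% higher. With the trend removed, 30.8% of all genes tested were called, and 49.5% of those called were higher.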

How the data were processed

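Bulk RNA was sequenced from 3 SMG and 3 NG libraries, grouped by the labels. The deposited table gives raw counts for each Ensembl gene in whole numbers, made by the authors with HISAT2, SAMtools and featureCounts on hg19, per the submitters' processing notes, which also name DESeq2. The sources used here do not give versions, annotation, use of strand, handling of multi-mapping reads (which bears most on near-identical genes) or the time on the clinostat.

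Symbols were matched for 52338 of 57820 genes. GENCODE 29 and RefSeq windows are on GRCh38 and served for names, lengths, gene order, shared 50-base stretches and sequences. Genes were filtered with filterByExpr (17803 left), scaled by TMM and tested with edgeR's quasi-likelihood test (glmQLFit, robust), Benjamini-Hochberg adjusted over all of them. The replicate coefficient of variation was 0.0346. Alternatives were DESeq2, limma-voom, other scalings and filters, no robust estimation, replicate number as a block, each library's length and GC trend removed as spline offsets, protein-coding genes alone, HSPA1A and HSPA1B summed, and each library left out. Values per library are given for called members with an absolute log2 fold change of at least 0.3 and a mean of at least 2 CPM, the highest member per kilobase of each family, and main members of each family. Others with values per library (HSPA4, HSPA6, HSPA13, HSPB8, DNAJA4, DNAJB12, DNAJB14, DNAJC5 and DNAJC6) were added after their values were seen. Of the other chaperone lists, up to 3 called members each are named, by size, and 1 is not reported here. Members and lists were chosen with earlier results of these data known. In simulated counts of 17566 genes, edgeR recovered 68% of genes changed 1.2-fold and 88% of those changed 1.5-fold. The changed genes, 50 for each fold, were drawn only from genes above a minimum mean count. These shares thus do not cover members with few counts, such as HSPA6 and DNAJC15. Versions were DESeq2 1.42.0, edgeR 4.0.16 and limma 3.58.1, under R 4.3.3.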

Additional observations from a re-analysis of the deposited data

How the results depend on the processing

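The 18 alternatives called 12 to 18 members lower and 3 to 7 higher. The higher count moved from 4 to 7 with the length and GC trend removed, alone or with the replicate block, to 7 with protein-coding genes alone, and to 3 to 7 with a library left out. The 7 came without NG replicate 3, where DNAJA4, DNAJB11, HSPA5 and HSPA12A joined and HSF1 left. With the trend removed, alone and with the block, HSF1 turned to -0.0207 and -0.0212 and DNAJA1 to 0.0762 and 0.076 (DNAJA1 log2 fold change). The trend removal lost 10 member calls and gained 8, besides these 2. DESeq2 lost 7, those of DNAJB9, DNAJC12, DNAJC19, DNAJC24, DNAJC27, HSPA9 and HSF1. The cause was not tested. Of all genes tested, 4589 to 6385 were called. The replicate block gave 17 lower and 4 higher members and lost DNAJC24. Libraries of the same number correlated at -0.059, 0.044 and -0.057 after group means were removed, so the numbers give no pairing. Summing HSPA1A and HSPA1B could not change a member's call, since their sum stays under the filter and that fit repeats the main one. The ratio of these 2 genes could not be made at 0 to 2 counts. No scaling moved the median of all genes by over 0.1. Low counts limit HSPA6 and the 13 untested members most, and for HSPA1A, HSPA1B and HSPA1L the reason for them was not tested.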
